A study of Homo sapiens with 18 samples.

Results

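Genes of autophagy and of the lysosome were followed in HK-2, an immortalized human line from the proximal tubule of the kidney, treated for 12, 24 or 48 h with CsA or with control vehicle. The set held 35 genes named by symbol, chosen with earlier results of these data known. Of these, 18 were genes of autophagy, with 2 of its transcription factors among them. The others were 12 genes of lysosomal enzymes and membrane proteins and 5 subunits of the vacuolar proton pump. A gene was measured by its brightest probe set that carries exactly 1 gene symbol, and it was tested where the highest group mean of that probe set reached 4 on the log2 scale. All 35 passed, among 10717 genes tested in the series. The 18 arrays fell into 6 groups (CsA and control vehicle at 12, 24 and 48 h) of 3 biological replicates, numbered 1 to 3 in each group, and the labels do not say what separated the replicates. CsA is not spelled out in the labels and is the usual abbreviation of cyclosporin A, an immunosuppressant that binds cyclophilins and can harm the kidney. No dose is given. Cells of every group grew in the same medium with EGF, hydrocortisone, insulin, transferrin and selenium, and were treated near confluence a day after plating. The cells are 1 immortalized line, without the blood supply and the other cells of a kidney.

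Autophagy encloses cytoplasm in a double membrane, the autophagosome, which fuses with lysosomes so that its content is degraded. The ULK1 complex starts the process, a lipid kinase complex with BECN1 and its effector WIPI1 supply the membrane, a conjugation machinery attaches ATG8-type proteins such as MAP1LC3B to it, and receptors such as SQSTM1 bring the cargo. In lysosomes, which the V-ATPase acidifies, cathepsins and glycosidases break the content down, and the transcription factors TFEB and TFE3 activate many of these genes through E-box elements. Proximal tubule cells take up and degrade filtered protein and depend on this system.

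TFEB and its relatives bind the E-box TCACGTG, so the promoters of the members are shown with that motif. Of the 35 members, 28 had a window from 250 bases before to 50 bases after the start in RefSeq's table (build GRCh38.p14). The 7 bases TCACGTG were searched on both strands. They overlap the core CACGTG, which reads the same on both strands, so that 2 matches can overlap. TCACGTG was found in 3.71% of 35116 windows and in 6 of the 28 members with a window (21.4%). CACGTG was found in 7.26% of windows and in the same 6 members. The shares of windows count every window, and those of members count genes with a match in any window, so their units differ. The following stretches end at the base before the start site and read 5′ to 3′ on the strand of the gene, with matches on either strand in capitals. LAMP1 is given over 200 bases (chr13:113297039-113297238, plus strand). The other 5 are given over 100 bases, namely MCOLN1 (chr19:7522524-7522623, plus strand), CTSA (chr20:45891235-45891334, plus strand), CTSD (chr11:1763928-1764027, minus strand), ATP6V0D1 (chr16:67481158-67481257, minus strand) and ATG3 (chr3:112561963-112562062, minus strand).
LAMP1: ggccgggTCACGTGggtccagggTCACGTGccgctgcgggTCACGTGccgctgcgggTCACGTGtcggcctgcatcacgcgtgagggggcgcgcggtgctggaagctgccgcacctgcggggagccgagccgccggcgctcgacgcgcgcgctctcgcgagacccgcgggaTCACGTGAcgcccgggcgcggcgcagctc
MCOLN1: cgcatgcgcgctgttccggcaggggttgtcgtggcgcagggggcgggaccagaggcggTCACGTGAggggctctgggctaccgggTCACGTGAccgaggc
CTSA: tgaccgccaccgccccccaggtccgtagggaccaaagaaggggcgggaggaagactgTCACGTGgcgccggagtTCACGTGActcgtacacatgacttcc
CTSD: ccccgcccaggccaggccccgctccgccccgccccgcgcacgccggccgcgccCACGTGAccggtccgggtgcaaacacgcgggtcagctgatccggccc
ATP6V0D1: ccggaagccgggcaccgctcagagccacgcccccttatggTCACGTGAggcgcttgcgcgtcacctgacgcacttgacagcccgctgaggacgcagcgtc
ATG3: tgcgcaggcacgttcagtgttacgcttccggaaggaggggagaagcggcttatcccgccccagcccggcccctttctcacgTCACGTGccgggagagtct

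At 48 h 6 members had a limma adjusted p under 0.05 in fits with a block for replicate number. They passed in the fit on all arrays, in that on the 48 h arrays alone or in both. Of all genes 10.8% passed in the first fit and 7.69% in the second. The share of all genes that passed in 1 or both was not counted. Of the 6 members called, CTSD held TCACGTG (printed above), and ATG13, WIPI1, GLA, TFEB and GABARAPL1 had no match in their windows. ATG13, WIPI1 and GLA passed in both fits, and their promoters are shown for comparison. They lie at chr11:46617453-46617552 on the plus strand (ATG13), chr17:68457497-68457596 on the minus strand (WIPI1) and chrX:101407926-101408025 on the minus strand (GLA), again as the 100 bases before the start.
ATG13: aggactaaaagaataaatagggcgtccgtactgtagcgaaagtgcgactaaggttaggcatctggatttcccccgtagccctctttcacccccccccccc
WIPI1: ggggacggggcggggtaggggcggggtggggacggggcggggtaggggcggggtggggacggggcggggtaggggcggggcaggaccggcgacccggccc
GLA: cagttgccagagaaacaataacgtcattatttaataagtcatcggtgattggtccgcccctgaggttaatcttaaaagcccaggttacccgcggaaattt

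The 6 members with TCACGTG had a median log2 difference between CsA and control at 48 h of 0.08, ranging from -0.20 to 0.73, and the 22 with a window and no match a median of 0.24, ranging from -0.81 to 1.04. Among the 6, CTSD was the one with a difference above 0.30. LAMP1, with 6 matches in the printed stretch, differed by 0.02, and MCOLN1, with 4, by -0.20. Another motif, TGATGNAA, the element bound by C/EBP and ATF factors, was found in 3.62% of windows and in 0 of the 28.

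Array medians lay between 2.858 and 2.924 on the log2 scale. Of 14 proximal tubule markers 3 were tested (DPP4, CDH6 and PAX8), and the other 11 did not reach 4 in any group, while 6 of 6 epithelial markers were tested. No marker of leukocytes and macrophages (0 of 8), endothelium (0 of 5) or distal nephron (0 of 6) reached 4. Of 7 fibroblast markers 4 were tested, COL1A1, COL3A1, LUM and DCN. Of 5 podocyte markers 2 were tested, PODXL and SYNPO, with group means of at most 5.48. Signs of RNA quality, the 3′ minus 5′ difference of control probe sets, ranged over the arrays from 0.67 to 1.21 for ACTB and from -0.17 to 0.04 for GAPDH. Arrays of the same replicate number deviated alike from their group means, so the fit is also given with the replicate number as a block where that changes a call.

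At 12 h the 35 genes lay close to control. The median log2 difference (CsA minus control) was 0.03, beside -0.01 over all genes tested, and 21 of 35 differences were positive, beside 46.7% of all genes. With limma 0 of 35 members had an adjusted p under 0.05, as had 0% of all genes, with or without the block. No member had an unadjusted p under 0.05 without the block, as had 98 of the 10717 genes, and 1 had with it, as had 259. This was MCOLN1, the lysosomal calcium channel mucolipin-1, with a difference of -0.56 ± 0.28 (SE). GABARAPL2, an ATG8-type protein, was the member whose 3 CsA arrays all lay below the 3 control arrays (10.88 ± 0.09 against 11.06 ± 0.06, SD, n = 3), an arrangement found in 3.1% of all genes.

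At 24 h the median difference was 0.12 and 25 of 35 were positive, beside -0.01 and 48% of all genes. By limma 0 members passed the threshold (0% of all genes, and 0.00933% with the block). At an unadjusted p under 0.05 there was 1 member, ATG12, beside 406 of the 10717 genes, and with the block there were 2, ATG12 and GLA, beside 1009. NPC1, the cholesterol exporter of the lysosomal membrane, had the highest difference at this time, 0.58 ± 0.45. In 5 members all 3 CsA arrays lay above all 3 control arrays (MAP1LC3B, ATG12, ULK1, NPC1 and CTSL), beside 4.57% of all genes, and in 1, GLA, all lay below, beside 5.12%.

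At 48 h most autophagy genes had a higher mean with CsA, the lysosomal genes were divided, and none passed the test over all genes without the block. The median log2 difference of the 18 autophagy members was 0.29, with 17 positive, that of the 12 lysosomal members was -0.08, with 5 positive, and that of the 5 V-ATPase members was 0.12, with 4 positive. Over all 35 members it was 0.20 with 26 positive, beside 0.00 and 50.2% over all genes. By limma 0 of 35 members passed the threshold without the block, beside 0.439% of all genes, and 10 had an unadjusted p under 0.05 (9 higher and 1 lower), as had 1719 of the 10717 genes (830 higher and 889 lower). With the block 4 passed, a share close to the 10.8% of all genes. ATG13, TFEB and WIPI1 were higher, beside 4.8% of all genes, and GLA was lower, beside 5.96%. On the 48 h arrays alone with the block 5 passed, ATG13, WIPI1, GABARAPL1 and CTSD higher and GLA lower, beside 7.69% of all genes (2.8% higher and 4.89% lower), and TFEB did not (limma adjusted p = 0.061). In 7 members all CsA arrays lay above all control arrays (NBR1, GABARAPL1, BECN1, TFEB, HEXA, ATP6V0D1 and ATP6V1H), beside 8.25% of all genes, and in 1, GLA, all lay below, beside 6.77%.

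**Figure D1:**
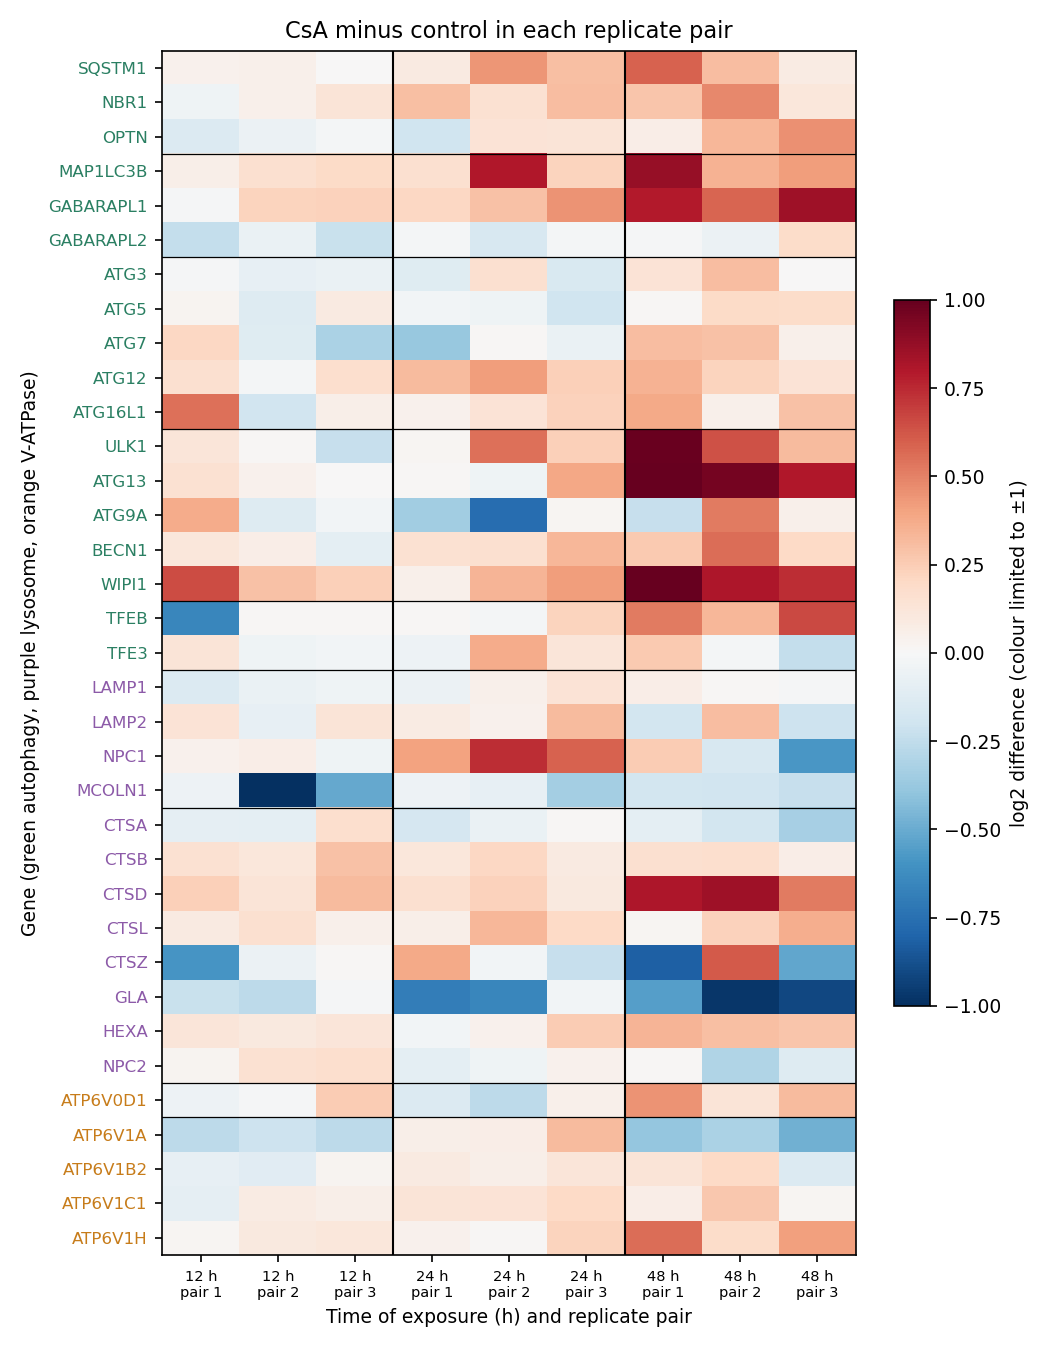
Log2 difference between the CsA and the control array of the same replicate number, for each of the 35 genes (lines, ordered by role) at 12, 24 and 48 h (columns), with red for higher and blue for lower in CsA and the colour limited to 1 either way. Most of the autophagy genes at the top are red at 48 h, where 16 of 18 are positive in each pair. GLA is negative in all 9 pairs, but by only -0.01 and -0.03 in pair 3 at 12 and 24 h.

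The calls with the block were lost without some single arrays. Without control replicate 1 of 48 h none of the 4 passed (limma adjusted p from 0.0694 for GLA to 0.141 for TFEB), the difference of WIPI1 went from 1.04 to 0.60 and that of ATG13 from 0.96 to 0.67, and TFEB and GLA stood at 0.44 and -0.77. None passed without CsA replicate 2 of 48 h (0.0957 to 0.131), where GLA was at -0.63, ATG13 at 0.89, WIPI1 at 0.98 and TFEB at 0.57. Without CsA replicate 3 of 48 h GLA alone passed (0.0406), and without control replicate 3 TFEB was lost (0.0573). With replicate 3 left out of all groups none of the 4 passed (0.0798 to 0.145), with ATG13 at 1.03, WIPI1 at 1.20, TFEB at 0.42 and GLA at -0.76. Without the block, leaving out CsA replicate 1 of 48 h brought ATG13 (0.0166) and GLA (0.0368) past the threshold, and leaving out control replicate 3 of 48 h brought ATG13 (0.0446).

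Marker genes also differed at 48 h, with overlapping ranges of their mean levels. The 4 tested fibroblast markers were all lower with CsA, none past the threshold, and their mean level lay between 6.60 and 7.41 on the CsA arrays and between 7.13 and 8.16 on the control arrays. The mean of the 3 tested proximal tubule markers lay between 10.21 and 10.83 with CsA and between 10.74 and 11.31 in control. Of these CDH6 differed by -1.23 ± 0.38 (limma adjusted p = 0.133 without and 0.0309 with the block), PAX8 by -0.17 ± 0.36 and DPP4 by 0.15 ± 0.18. Of the 6 epithelial markers 5 were positive (median 0.32). Their mean lay between 9.88 and 11.04 with CsA and between 9.55 and 10.75 in control, and CDH1 alone was past the threshold with the block (0.86 ± 1.91, limma adjusted p = 0.905 without and 0.0126 with it). The part of these in the differences of the autophagy and lysosome genes was not tested, and a change in the make-up of the cells cannot be told apart from a change in the RNA of each cell.

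The genes of initiation and membrane supply held the 2 highest differences of the 35 at 48 h, those of WIPI1 and ATG13. All 5 were positive, with a median of 0.65. ATG13, a subunit of the ULK1 complex, measured 7.76, 7.67 and 7.89 in control replicates 1, 2 and 3 at 12 h, 7.89, 7.76 and 7.53 at 24 h and 7.42, 8.13 and 8.54 at 48 h. With CsA it measured 7.91, 7.71 and 7.89, then 7.90, 7.71 and 7.92, and at 48 h 8.53, 9.08 and 9.35. The groups overlapped at each time, at 48 h by the highest control array, which lay just above the lowest CsA array, and each CsA array lay above the control of its number by 1.11, 0.96 and 0.80. The difference at 48 h was 0.96 ± 0.24, or 1.94-fold (limma adjusted p = 0.0795 without and 0.0222 with the block). The other probe sets of ATG13 differed by 0.74 and 1.02.

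WIPI1, which binds phosphatidylinositol 3-phosphate on the forming membrane, measured 7.92, 8.15 and 8.72 in control at 12 h, 8.18, 8.07 and 8.79 at 24 h and 8.64, 10.12 and 10.84 at 48 h. Its CsA arrays measured 8.57, 8.45 and 8.97 at 12 h, 8.23, 8.41 and 9.21 at 24 h and 10.23, 10.93 and 11.58 at 48 h. Each CsA array was above its control at every time, and within each of the 6 groups replicate 3 was the highest, so that the groups overlapped although every pair pointed the same way. Control replicate 1 at 48 h had stayed near the level of 24 h and gave the widest pair, 1.59, against 0.81 and 0.74. The difference was 1.04 ± 0.48, or 2.06-fold (limma adjusted p = 0.302 without and 0.0314 with the block), and 1.11 by the other probe set.

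ULK1, the kinase of the complex, differed by 0.65 ± 0.26 at 48 h (limma adjusted p = 0.242 without and 0.0525 with the block), with pairs of 0.99, 0.64 and 0.32. BECN1, the core of the lipid kinase complex, measured 9.68, 9.78 and 10.08 in control at 12 h, 9.62, 9.78 and 9.95 at 24 h and 9.90, 9.78 and 9.94 at 48 h, and with CsA 9.78, 9.84 and 9.98, then 9.78, 9.93 and 10.28, then 10.16, 10.34 and 10.14. Its groups separated at 48 h, by 0.34 ± 0.14 (limma adjusted p = 0.262 without and 0.0642 with the block). ATG9A, the lipid scramblase of the vesicles that seed the membrane, differed by -0.36 ± 0.30 at 24 h and by 0.11 ± 0.30 at 48 h.

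**Figure D2:**
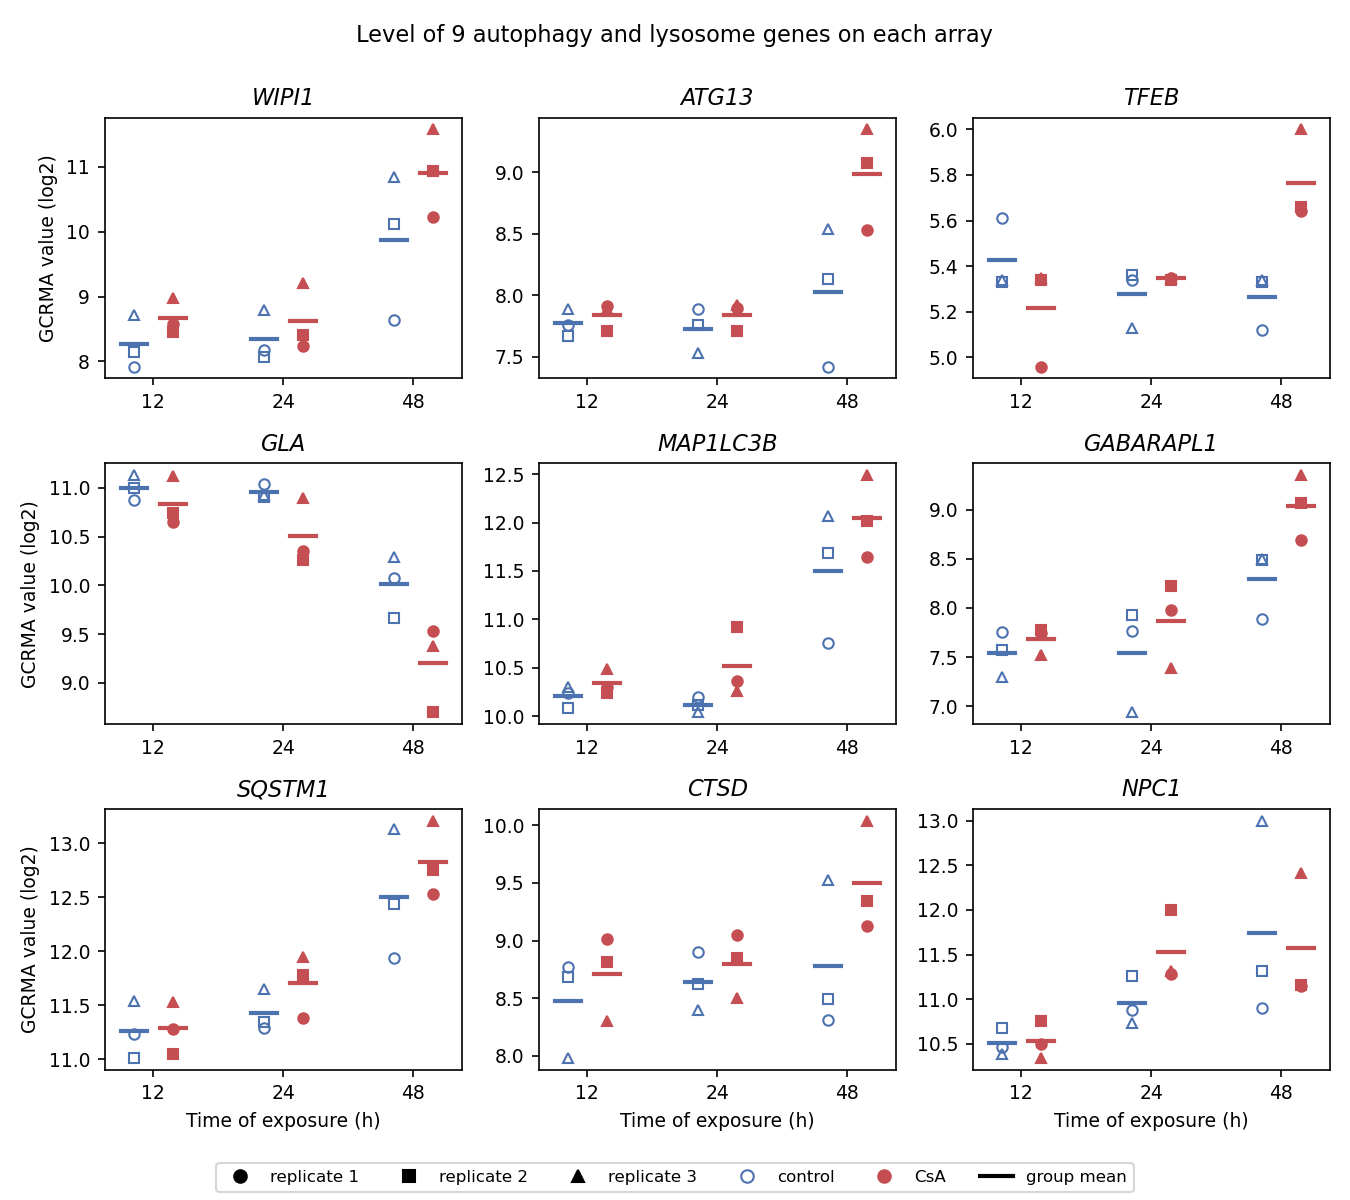
GCRMA value (log2 scale) of 9 genes on each of the 18 arrays against the time of exposure in h, with control open and CsA filled, the replicate number by the shape and the mean of the 3 arrays as a bar. For WIPI1, ATG13 and MAP1LC3B the open circle at 48 h, control replicate 1, lies well below the other control arrays, and GLA is lower with CsA in every pair.

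The ATG8-type proteins, which coat the membrane and bind cargo receptors, had 3 members in the set, and none passed the threshold over all arrays. MAP1LC3B, the usual marker of autophagosomes as a protein, measured 10.24, 10.08 and 10.30 in control at 12 h, 10.20, 10.12 and 10.04 at 24 h and 10.76, 11.68 and 12.07 at 48 h. With CsA it measured 10.30, 10.24 and 10.49, then 10.36, 10.92 and 10.26, then 11.64, 12.02 and 12.49. It was above control in all 9 pairs, with separate groups at 24 h and overlapping ones at 48 h. MAP1LC3B differed by 0.40 ± 0.28 at 24 h and by 0.55 ± 0.28 at 48 h (limma adjusted p = 0.37 without and 0.18 with the block).

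GABARAPL1 measured 7.76, 7.57 and 7.30 in control at 12 h, 7.77, 7.93 and 6.94 at 24 h and 7.89, 8.49 and 8.50 at 48 h. Its CsA arrays measured 7.75, 7.78 and 7.52, then 7.98, 8.22 and 7.39, then 8.69, 9.07 and 9.35. At 48 h the lowest CsA array lay above the highest control array. The difference was 0.74 ± 0.28, or 1.67-fold (limma adjusted p = 0.214, 0.0803 with the block and 0.0338 with the block on the 48 h arrays alone). GABARAPL2 differed by -0.18 ± 0.10 at 12 h, -0.06 ± 0.10 at 24 h and 0.04 ± 0.10 at 48 h.

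Among the cargo receptors, SQSTM1, which binds ubiquitinated cargo, measured 11.23, 11.01 and 11.54 in control at 12 h, 11.29, 11.34 and 11.65 at 24 h and 11.94, 12.44 and 13.13 at 48 h. With CsA it measured 11.28, 11.05 and 11.53, then 11.38, 11.78 and 11.95, then 12.53, 12.75 and 13.21. At 12 h the pairs were nearly equal, and the groups overlapped at each time. SQSTM1 differed by 0.28 ± 0.27 at 24 h and by 0.33 ± 0.27 at 48 h (limma adjusted p = 0.637 without and 0.206 with the block). NBR1, a receptor of like build, differed by 0.29 ± 0.21 at 48 h with separate groups, and OPTN, a receptor used on mitochondria and bacteria, by 0.29 ± 0.22 with overlapping ones.

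The conjugation genes had small differences. ATG12, the ubiquitin-like protein joined to ATG5, measured 8.82, 8.84 and 9.10 in control at 12 h, 8.77, 8.79 and 8.93 at 24 h and 9.24, 9.32 and 9.55 at 48 h, and with CsA 8.98, 8.82 and 9.28, then 9.09, 9.20 and 9.17, then 9.59, 9.54 and 9.70. Its groups were separate at 24 h, where the difference was 0.32 ± 0.13, and overlapped at 48 h. Averaged over the 3 times ATG12 was 0.22 ± 0.07 higher (limma adjusted p = 0.234 without and 0.0362 with the block). Its other probe sets gave smaller differences at 24 h, 0.05 and 0.14. At 12 h they gave -0.04 and 0.09, and at 48 h 0.19 and 0.15. At 48 h ATG3 (the E2-type enzyme) differed by 0.15 ± 0.16, ATG5 by 0.12 ± 0.17, ATG7 (the E1-type enzyme) by 0.22 ± 0.37 and ATG16L1 (which places the conjugating complex) by 0.24 ± 0.39. By the probe sets used all 5 were positive at 48 h, and none passed the threshold at that time. Other probe sets that reached 4 gave -0.04 for ATG3 and -0.30 for ATG16L1 at 48 h. Those of ATG5 gave 0.34 and 0.23, and that of ATG7 gave 0.45.

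TFEB, the transcription factor that drives lysosomal genes, measured 5.61, 5.33 and 5.34 in control at 12 h, 5.34, 5.36 and 5.13 at 24 h and 5.12, 5.33 and 5.34 at 48 h. Its CsA arrays measured 4.96, 5.34 and 5.35, then 5.35, 5.34 and 5.35, then 5.64, 5.66 and 6.00. The 3 CsA arrays at 48 h were the highest of the 18, and 11 arrays lay within 0.03 of the median of 5.34, a near-constant value at low signal. The difference at 48 h was 0.50 ± 0.14, or 1.42-fold (limma adjusted p = 0.0974 without and 0.0356 with the block). The second probe set, whose highest group mean was 4.24, differed by 0.14 at 12 h, 0.05 at 24 h and 0.20 at 48 h. TFE3, a related factor, differed by 0.00 ± 0.42, with pairs of 0.26, -0.02 and -0.24, and by 0.53 and 0.14 in its other probe sets that reached 4.

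**Figure D3:**
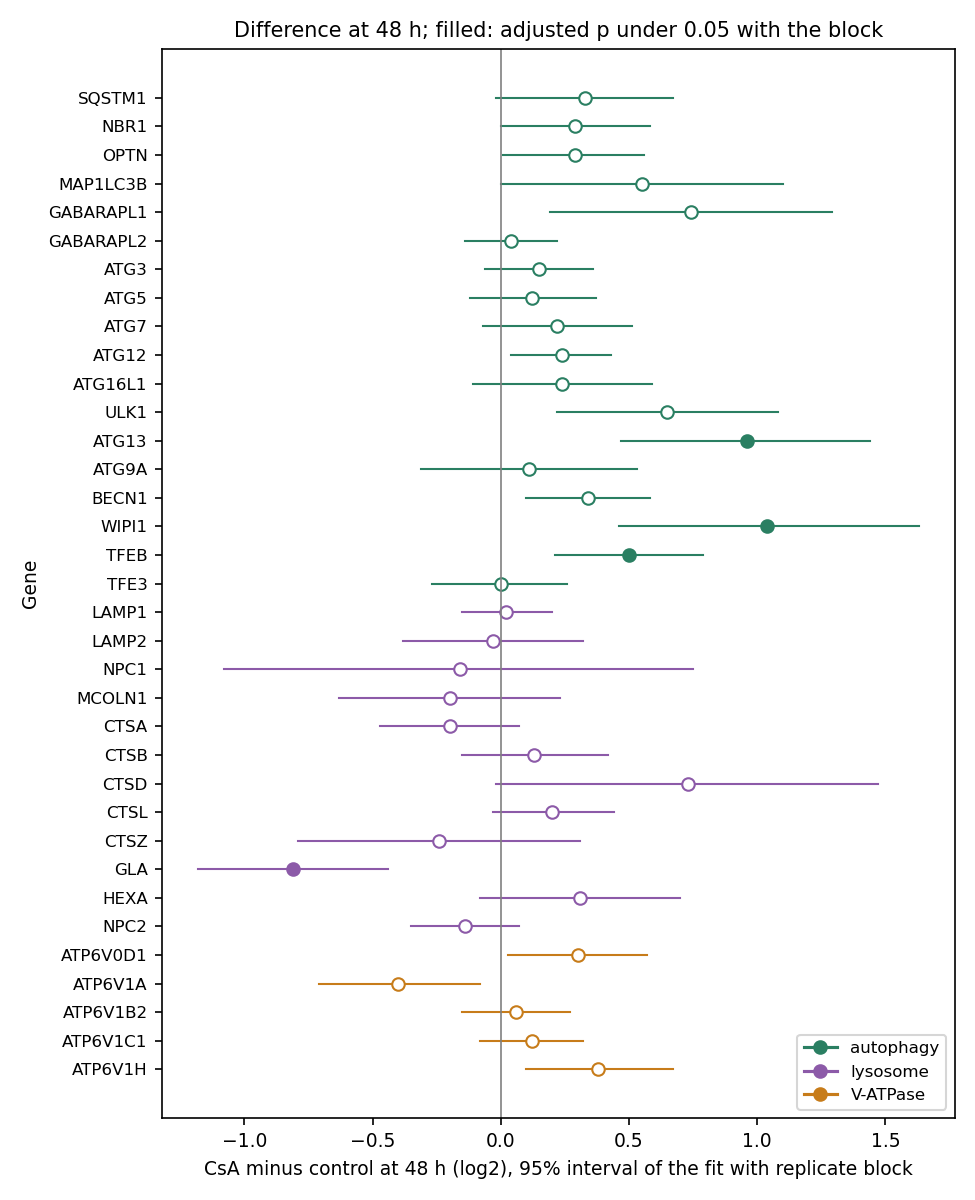
Log2 difference between CsA and control at 48 h for the 35 genes, with the 95% interval of the limma fit with the replicate block, coloured by group and filled where the adjusted p with the block was under 0.05. The filled points are ATG13 at 0.96, WIPI1 at 1.04 and TFEB at 0.50 to the right and GLA at -0.81 to the left, and the lysosomal genes lie on both sides of 0.

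None of the 4 lysosomal membrane proteins passed the threshold. LAMP1, an abundant glycoprotein of the membrane, measured 13.18, 13.21 and 12.88 in control at 12 h, 13.15, 13.19 and 12.84 at 24 h and 13.19, 13.37 and 13.22 at 48 h, and with CsA 13.04, 13.13 and 12.84, then 13.08, 13.24 and 12.98, then 13.25, 13.38 and 13.21. The arrays overlapped at each time, with a difference at 48 h of 0.02 ± 0.13. Other LAMP1 probe sets gave 0.48, 0.27 and -0.03 at 48 h. LAMP2, another such glycoprotein, differed by -0.03 ± 0.18, while its other probe sets gave 0.30, 0.25 and 0.32. The brightest probe set of LAMP2 was thus matched by none of the others, and that of LAMP1 by only some.

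NPC1 measured 10.46, 10.68 and 10.38 in control at 12 h, 10.88, 11.26 and 10.73 at 24 h and 10.90, 11.32 and 13.00 at 48 h. With CsA it measured 10.50, 10.75 and 10.34, then 11.28, 12.00 and 11.32, then 11.15, 11.16 and 12.42. At 24 h each CsA array lay above all control arrays, with pairs of 0.40, 0.74 and 0.59. At 48 h replicate 3 stood far above the others in both groups and the pairs were 0.25, -0.16 and -0.58, for a difference of -0.16 ± 0.45. The second probe set, whose highest group mean was 4.98, gave 0.27, 1.32 and -0.68 at 12, 24 and 48 h.

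MCOLN1 measured 6.53, 6.94 and 7.12 in control at 12 h, 6.59, 6.61 and 6.96 at 24 h and 6.67, 7.20 and 7.63 at 48 h, and with CsA 6.48, 5.83 and 6.61, then 6.54, 6.53 and 6.63, then 6.49, 7.00 and 7.40. It was below control in all 9 pairs, most widely in pair 2 at 12 h (-1.11). Averaged over the times it differed by -0.30 ± 0.16 (limma adjusted p = 0.484 without and 0.134 with the block). Of all genes 4.42% were below control in all 9 pairs, and among the members these were MCOLN1 and GLA.

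GLA, the lysosomal alpha-galactosidase A whose loss causes Fabry disease, had the smallest p of the lysosomal genes at 48 h. It measured 10.87, 11.00 and 11.13 in control at 12 h, 11.04, 10.91 and 10.93 at 24 h and 10.08, 9.67 and 10.29 at 48 h. Its CsA arrays measured 10.65, 10.74 and 11.12, then 10.35, 10.26 and 10.90, then 9.53, 8.70 and 9.38. Every CsA array lay below every control array at 24 h and at 48 h, and at 12 h the groups overlapped. The difference was -0.17 ± 0.23 at 12 h, -0.46 ± 0.23 at 24 h and -0.81 ± 0.23 at 48 h, the last 1.75-fold lower (limma adjusted p = 0.104 without and 0.0156 with the block). On average over the times it was -0.48 ± 0.13 (0.15 without and 0.023 with the block), by 1 probe set.

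Of the 5 cathepsins, the proteases of the lysosome, 3 had a positive difference at 48 h and 2 a negative one. CTSD, an aspartic protease, measured 8.77, 8.68 and 7.98 in control at 12 h, 8.90, 8.62 and 8.40 at 24 h and 8.31, 8.49 and 9.53 at 48 h, and with CsA 9.01, 8.81 and 8.30, then 9.05, 8.85 and 8.50, then 9.13, 9.34 and 10.04. All 9 pairs were positive, and at 48 h, where they were 0.81, 0.85 and 0.52, replicate 3 of control lay above both lower CsA arrays. The difference was 0.73 ± 0.33, or 1.65-fold (limma adjusted p = 0.3, 0.188 with the block and 0.0369 with the block on the 48 h arrays alone).

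CTSL, a cysteine protease, measured 9.33, 9.42 and 9.33 in control at 12 h, 9.42, 9.40 and 9.26 at 24 h and 9.17, 9.23 and 9.27 at 48 h, and with CsA 9.41, 9.58 and 9.37, then 9.48, 9.73 and 9.46, then 9.19, 9.46 and 9.63. It was above control in all 9 pairs, by 0.17 ± 0.07 on average (limma adjusted p = 0.336 without and 0.129 with the block). CTSB, another cysteine protease, was also above control in all 9 pairs, by 0.13 ± 0.55 at 48 h, and 1 of its other probe sets gave -0.35. The 6 members positive in all 9 pairs were MAP1LC3B, WIPI1, CTSB, CTSD, CTSL and ATP6V1H, beside 3.47% of all genes. At 48 h CTSA, the protective protein of other lysosomal enzymes, differed by -0.20 ± 0.13, CTSZ by -0.24 ± 0.26 with pairs from -0.82 to 0.61, HEXA, a hexosaminidase subunit, by 0.31 ± 0.29, and NPC2, the cholesterol carrier of the lumen, by -0.14 ± 0.19.

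The V-ATPase pumps protons into the lysosome through its V0 sector, driven by ATP hydrolysis in the V1 sector. ATP6V0D1, the V0 member, measured 11.47, 11.20 and 11.14 in control at 12 h, 11.51, 11.35 and 11.14 at 24 h and 11.21, 11.57 and 11.39 at 48 h, and with CsA 11.42, 11.20 and 11.39, then 11.37, 11.09 and 11.19, then 11.66, 11.70 and 11.70. Its groups separated at 48 h, with a difference of 0.30 ± 0.13 (limma adjusted p = 0.283 without and 0.139 with the block). ATP6V1H, a regulatory V1 subunit, measured 9.31, 9.30 and 9.07 in control at 12 h, 9.57, 9.61 and 9.20 at 24 h and 9.33, 9.79 and 9.72 at 48 h, and with CsA 9.33, 9.40 and 9.17, then 9.61, 9.62 and 9.42, then 9.89, 9.97 and 10.13. It too had separate groups at 48 h, 0.38 ± 0.15 apart (limma adjusted p = 0.216 without and 0.0816 with the block), and all 9 pairs were positive.

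ATP6V1C1, a stalk subunit, measured 11.00, 11.03 and 10.98 in control at 12 h, 11.27, 11.43 and 11.20 at 24 h and 11.36, 11.22 and 11.48 at 48 h, and with CsA 10.91, 11.11 and 11.04, then 11.39, 11.57 and 11.40, then 11.43, 11.50 and 11.50. The groups overlapped at each time and the average difference was 0.10 ± 0.06. The other probe sets of ATP6V1C1 gave 0.15, -0.08 and -0.15 at 12 h and 0.24, -0.14 and -0.08 at 24 h. At 48 h they gave 0.13, 0.11 and -0.16, in the same order. The last of these was below control at each time, so the sign was not shared by all probe sets. ATP6V1A, the catalytic subunit, measured 11.89, 12.04 and 10.97 in control at 12 h, 11.92, 12.19 and 10.70 at 24 h and 12.34, 12.19 and 11.66 at 48 h, and with CsA 11.63, 11.83 and 10.70, then 11.98, 12.26 and 11.02, then 11.95, 11.88 and 11.18. Replicate 3 was the lowest in each of the 6 groups. The pairs at 48 h were -0.39, -0.32 and -0.48, all below control, for a difference of -0.40 ± 0.45 (limma adjusted p = 0.752 without and 0.0945 with the block). ATP6V1B2, its partner in the catalytic ring, differed by 0.06 ± 0.26.

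Averaged over the 3 times, 0 of 35 members passed the threshold by limma without the block, beside 0.084% of all genes (0.0746% higher and 0.00933% lower), and 8 had an unadjusted p under 0.05 (7 higher and 1 lower), as had 1312 of the 10717 genes (631 higher and 681 lower). With the block 2 passed, ATG12 higher and GLA lower, beside 4.61% of all genes (2.11% higher and 2.5% lower). The median was 0.10, beside -0.01 over all genes. GLA lost its call with the block when CsA replicate 1 of 12 h (0.0652), CsA replicate 1 or 2 of 24 h (0.0575 and 0.0523), control replicate 2 of 12 h (0.0636) or control replicate 2 of 24 h (0.0593) was left out. ATG12 kept its call only without CsA replicate 2 of 12 h, CsA replicate 3 of 24 h, CsA replicate 1 or 3 of 48 h or control replicate 2 or 3 of 48 h, and without any other array it was 0.0525 to 0.0889. Whether the difference between CsA and control at 48 h departed from that at 12 h was tested as a contrast of its own, and 0 of 35 members passed with or without the block, beside 0.0373% and 0.028% of all genes. The unadjusted p was under 0.05 in 2 members without the block, beside 506 of the 10717 genes, and in 4 with it (3 higher and 1 lower), beside 1317. Without the block these were TFEB, 0.71 ± 0.19 (limma unadjusted p = 0.00245, adjusted p = 0.996), and ATG13, 0.90 ± 0.34 (0.0197 and 1). The TFEB pairs at 12 h were -0.65, 0.01 and 0.01, so its value leaned on the first of them. The second probe set of TFEB differed by 0.14 at 12 h and by 0.20 at 48 h.

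Some of these genes changed with time in culture. From 12 to 48 h in control cells 6 members passed the threshold by limma, a share close to the 17.9% of all genes, and 18 with the block, beside 36.7%. The 5 that rose, beside 8.48% of all genes, were WIPI1 by 1.60 ± 0.48 (adjusted p = 0.0334), MAP1LC3B by 1.30 ± 0.28 (0.00814), SQSTM1 by 1.25 ± 0.27 (0.00818), ATG12 by 0.45 ± 0.13 (0.0264) and ATP6V1C1 by 0.35 ± 0.10 (0.0258). GLA fell, by 0.99 ± 0.23 on the log2 scale (0.0104), beside 9.37% of all genes. The median of all 35 members was 0.25, beside -0.01 over all genes. Leaving out 1 control array gave 3 to 10 members, the 10 without control replicate 1 of 48 h and the 3 without control replicate 1 or 2 of 12 h or control replicate 2 or 3 of 48 h. Without 1 of these 4 arrays the adjusted p of WIPI1 was 0.0831 to 0.124, that of ATG12 0.0557 to 0.092 and that of ATP6V1C1, where lost, 0.055 to 0.0862. ATP6V1C1 was also lost without control replicate 3 of 12 h (0.0737) and GLA without control replicate 2 of 48 h (0.0505). On the arrays of these groups alone GLA was the 1 member past the threshold without the block.

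In CsA cells 15 members passed over the same interval, beside 32.5% of all genes, and 22 with the block, beside 48.7%. The 14 that rose, beside 16.3% of all genes, were led by WIPI1 (2.25 ± 0.48, limma adjusted p = 0.0027), MAP1LC3B (1.70 ± 0.28, 0.000521), SQSTM1 (1.54 ± 0.27, 0.000794), GABARAPL1 (1.35 ± 0.28, 0.0023), ULK1 (1.24 ± 0.26, 0.00255) and ATG13 (1.15 ± 0.24, 0.00247). The others were OPTN (1.01), HEXA (0.93), ATP6V1H (0.70), NBR1 (0.65), ATG12 (0.58), TFEB (0.55), ATP6V1C1 (0.45) and GABARAPL2 (0.45). GLA fell by 1.63 ± 0.23 on the log2 scale (0.000196), beside 16.2% of all genes. The median was 0.45. HEXA and NBR1 lost their calls without CsA replicate 3 of 12 h (0.113 and 0.138) or CsA replicate 2 of 48 h (0.0859 and 0.119), and NBR1 without CsA replicate 1 of 48 h (0.0595).

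The 6 genes called in control were all among the 15 called in CsA, 100% of the first list and 40% of the second, beside 87.2% and 47.9% for the calls over all genes. With the block 14 genes were called in both, 77.8% of the control list and 63.6% of the CsA list, beside 82.9% and 62.5%. In 29 of 35 members the change from 12 to 48 h was larger in size with CsA than in control, and in 32 it had the same sign. These counts were not made over all genes, of which 32.5% were called over time in CsA and 17.9% in control. That the changes differ between CsA and control is the contrast of effects given above, in which no member passed. The change in control and the difference from control at 48 h share the control arrays of 48 h, so their values stand side by side only. For WIPI1 they were 1.60 and 1.04, for ATG13 0.25 and 0.96, for TFEB -0.16 and 0.50, for SQSTM1 1.25 and 0.33, and for GLA -0.99 and -0.81.

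**Figure D4:**
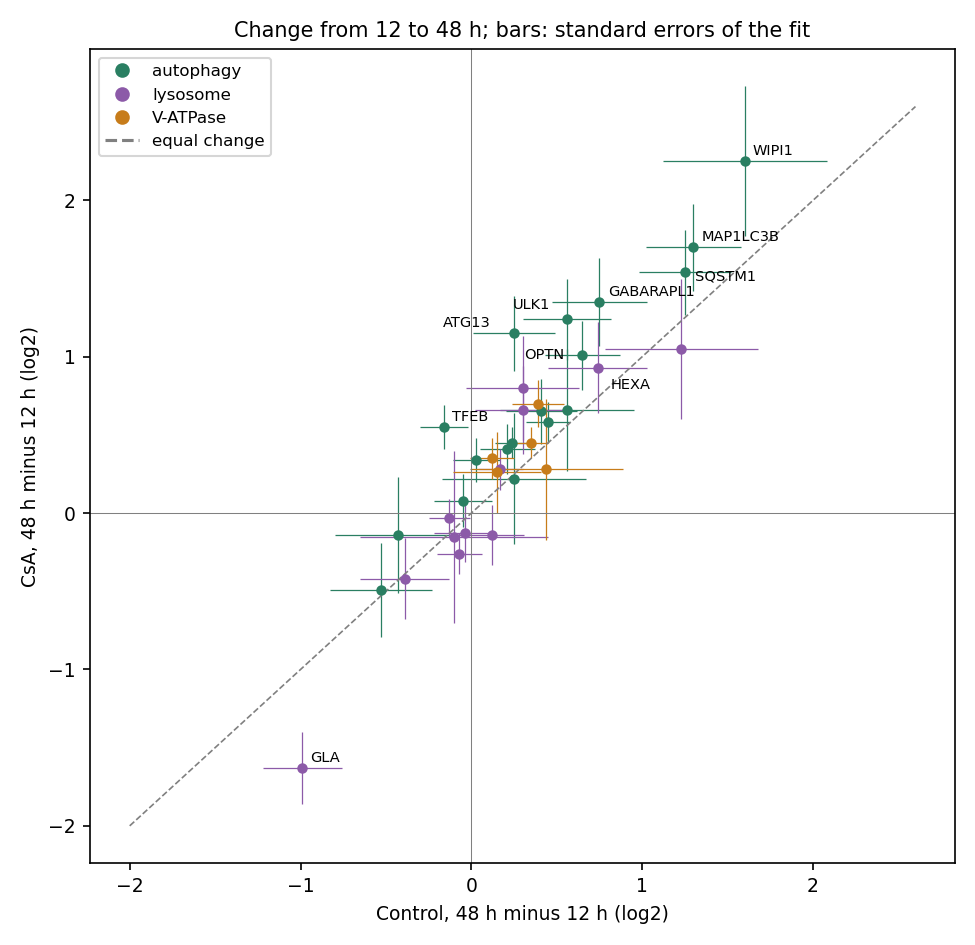
Change of each of the 35 genes from 12 to 48 h (log2) in control cells (horizontal) and in CsA cells (vertical), with standard errors of the limma fit as bars, the line of equal change dashed and 10 of the genes called in CsA named. WIPI1 at 1.60 and 2.25 and MAP1LC3B at 1.30 and 1.70 are at the upper right, GLA at -0.99 and -1.63 at the lower left, and ATG13 and TFEB lie farther above the line than they lie from 0 in control.

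Replicate number was the other large source of spread. Of the sum of squares of each gene over the 18 arrays, the median share over the 35 members was 36.6% for time, 15.9% for replicate number and 3.98% for CsA, beside 30.6%, 20.4% and 3% over all genes. The share of CsA by time, which is apart from that of CsA, had a median of 3.73%, beside 4% over all genes. Time took the largest share in 16 members (45.7%, beside 42.8% of all genes) and replicate number in 13 (37.1%, beside 29.8%). CsA took it in 0 members, beside 82 of the 10717 genes. In TFEB the largest share, 42.8%, was that of CsA by time. In CTSB the mean of replicate 3 was 1.22 above that of replicates 1 and 2, in TFE3 0.92, in WIPI1 0.86, in ATG16L1 0.81 and in ATG7 0.79, and in ATP6V1A and HEXA it was lower (-0.97 and -0.53). For CTSB, TFE3, ATG16L1, ATG7 and ATP6V1A these offsets were larger than any of their differences between CsA and control.

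**Figure D5:**
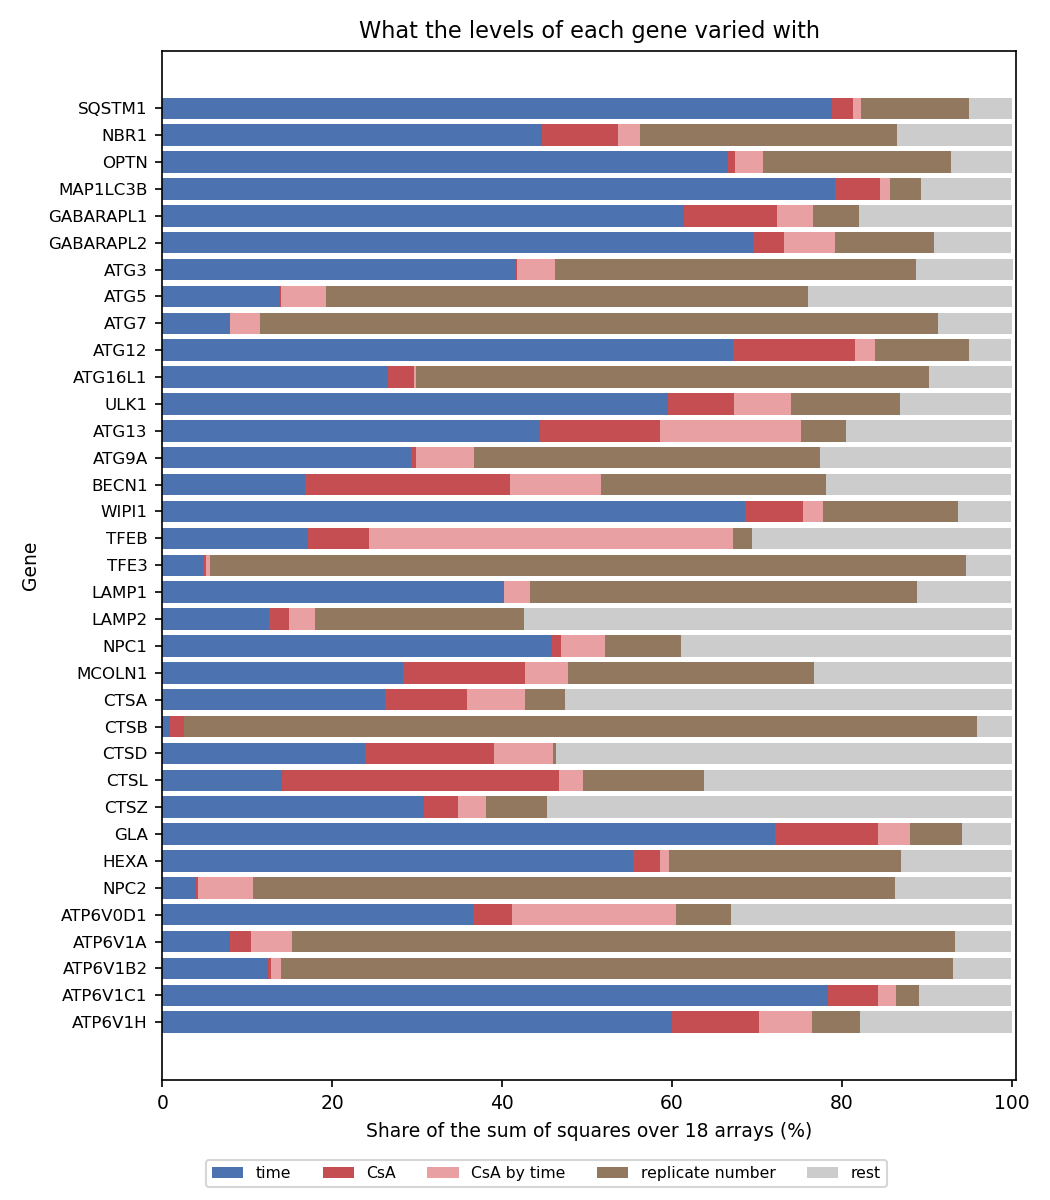
Share (%) of the sum of squares of each gene over the 18 arrays that goes with time, CsA, CsA by time, replicate number and the rest. Blue (time) is longest for MAP1LC3B and SQSTM1, and brown (replicate number) for CTSB, TFE3 and ATG7. Red (CsA) is the longest part of no gene, and CsA by time is the longest part for TFEB.

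Further genes of the same pathways were taken from lists that do not overlap the members. Of 43 further autophagy genes 31 had a positive difference at 48 h, with a median of 0.13, and 0 passed the threshold by limma without the block, at an unadjusted p under 0.05 in 6. With the block 4 were higher and 0 lower, beside 4.8% and 5.96% of all genes, WDR45 (a WIPI-family protein, 0.88 ± 0.19, adjusted p = 0.056 without and 0.0147 with the block), VPS39 (a subunit of the HOPS tether, 0.64 ± 0.16, 0.07 and 0.0239), CALCOCO2 (the cargo receptor NDP52, 0.43 ± 0.13, 0.115 and 0.0227) and TMEM41B (a lipid scramblase, outside the naming rule and named after its values were seen, 0.43 ± 0.19, 0.286 and 0.0352). On the 48 h arrays alone with the block WDR45 and VPS39 were higher and ATG4C lower, and CALCOCO2 (0.07) and TMEM41B (0.0772) did not pass. The lowest p among negative differences belonged to ATG4C (-0.58), PIK3R4 (-0.18) and MAP1LC3A (-0.22).

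Of 43 further lysosomal genes 25 had a positive difference at 48 h, with a median of 0.05, 0 passed without the block and 5 had an unadjusted p under 0.05. With the block 2 were higher and 1 lower by limma, beside the same 4.8% and 5.96%, and on the 48 h arrays alone with the block none of these 3 passed (0.0732 to 0.13). GALNS, a sulfatase, differed by 0.45 ± 0.13 (adjusted p = 0.126 without and 0.0234 with the block), LAPTM4A, a membrane protein, by 0.30 ± 0.10 (0.176 and 0.0242) and CTSC, a cathepsin, by -0.65 ± 0.22 (0.173 and 0.0206). GAA, the acid glucosidase, followed at 0.85 ± 0.30, and PPT1 and ARSB differed by -0.25 and -0.27. Of 13 further V-ATPase genes 9 were positive, with a median of 0.20, 0 passed without the block (2 at an unadjusted p under 0.05) and 1 with it, the accessory subunit ATP6AP1, at 0.37 ± 0.11 (limma adjusted p = 0.135 and 0.0346, and 0.121 on the 48 h arrays alone). ATP6V0A2 and ATP6V1G1 differed by 0.50 and 0.25, and ATP6V0A1, TCIRG1 and ATP6V0E2 by -0.26, -0.17 and -0.16.

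The regulators upstream were the nutrient-sensing kinase complex mTORC1 with its partners and the factors around TFEB. Of 34 genes 21 were positive at 48 h, with a median of 0.05, and 0 passed the threshold by limma without or with the block (3 and 7 at an unadjusted p under 0.05). FOXO3 and MITF, transcription factors of autophagy and lysosome genes, differed by -0.29 ± 0.11 and -0.78 ± 0.33, and PRKAA2, a catalytic subunit of AMPK, by -0.83 ± 0.53. TSC2, an inhibitor of mTORC1 signalling, differed by 0.33 ± 0.15, LAMTOR3, of its lysosomal anchor, by 0.25 ± 0.16, and SESN1, a stress-induced inhibitor, by 0.54 ± 0.42. On the 48 h arrays alone with the block 3 were lower and past the threshold, beside 4.89% of all genes, namely MITF (0.0419), PRKAA2 (0.0439) and DEPTOR, an inhibitor of mTOR that lay outside the naming rule and was named after its values were seen (-1.04 ± 0.97, 0.0308).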

How the data were processed

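The table holds 54675 probe sets for 18 arrays. The authors made its values with GCRMA, no version given (per the submitters' processing notes), which corrects background, normalizes between arrays and summarizes probe sets. The deposited values were taken as log2 values from their range, since the labels name no log base. Whether other arrays entered the normalization is not given in the sources used. Of the probe sets, 41091 carried 1 gene symbol, 1801 several and 11721 none, and 62 were controls. Each gene was measured by its probe set with the highest mean, if a group mean reached 4 (10717 genes).

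Each contrast was fitted by limma 3.58.1 (R 4.3.3) over all 18 arrays with a term per group and Benjamini-Hochberg adjustment over all genes (threshold 0.05). Errors beside a difference are standard errors of the fit without the block, and those beside a mean are SDs. The script was tested on simulated data. The number of arrays limits the precision.

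Groups share replicate numbers. Between groups, deviations of same-number arrays correlated at 0.277 to 0.942. Those of different-number arrays correlated at up to 0.732, so the ranges overlapped. Among the arrays of other groups, 18 of 18 arrays lay closest to one of their own number, so the numbers were treated as pairs. This rests on the values, as no label states it. The block enters that number in the fit.

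The members and lists were chosen with earlier results of these data known. Every member is named. Values on each array are given for members called with or without the block between CsA and control, the 4 with the smallest p in the average over the times in each of 3 groups (autophagy, lysosome, V-ATPase) and 8 chosen genes. Of further lists, the 3 with the smallest p at 48 h each way are named. Python 3.11.15, pandas 2.3.3 and matplotlib 3.10.9 made tables and figures. Level filter, scaling, floor, probe sets, variance model, block, arrays fitted and single arrays were varied.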

Additional observations from a re-analysis of the deposited data

Results flagged for a closer look

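In 3 members the difference between CsA and control had one sign in every replicate pair at one time and the opposite sign in every pair at another. ATP6V1A, the catalytic subunit of the V-ATPase, differed by -0.24 at 12 h and -0.40 at 48 h but by 0.15 at 24 h, with all 3 pairs on the side of the mean each time, and whether 24 h departs from the other times was not tested. ATG5 differed by -0.09 at 24 h and 0.12 at 48 h, and this too was not tested. OPTN differed by -0.07 at 12 h and 0.29 at 48 h. For OPTN the contrast of the effects at 48 and 12 h was tested, at 0.36 ± 0.31 (limma adjusted p = 1, and 0.45 with the block). None of these differences passed the threshold in the fit without the block. At a single time 18.9% to 26.2% of all genes had a given sign in all 3 pairs. Changes of sign between times were not counted over all genes. The other probe set of ATP6V1A gave -0.18, 0 and -0.29 at 12, 24 and 48 h. Those of ATG5 gave 0.19 and -0.15 at 24 h and 0.34 and 0.23 at 48 h. That of OPTN gave 0.03 at 12 h and 0.18 at 48 h.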

How the results depend on the processing

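With the replicate block the number of members past the threshold went from 0 to 4 at 48 h, from 0 to 2 in the average over the times and from 6 to 18 for control cells from 12 to 48 h. On the arrays of the groups compared alone it was 5 at 48 h and 3 for the control change with the block, and 1 for the control change without it. The average over the times uses all 18 arrays, so for it this setting is the same fit and gives the same 2. Taking the mean of all probe sets of a gene moved the median change in CsA cells from 0.45 to 0.35. Leaving out 1 array or replicate 3 gave 0 to 2 members at 48 h, and 0 to 7 with the block, 0 to 4 with the block in the average and 3 to 10 for the control change. The medians then ranged from 0.00 to 0.04 at 12 h, 0.07 to 0.33 at 48 h, 0.16 to 0.43 for autophagy, -0.17 to 0.04 for lysosomal and 0.06 to 0.30 for V-ATPase genes (with the block 0.24 to 0.34, -0.14 to 0.11 and 0.02 to 0.20), 0.06 to 0.14 in the average (0.05 to 0.13 with the block), 0.08 to 0.35 for the effect at 48 against 12 h and 0.12 to 0.30 for the control change. Leave-one-out fits with the block were added after seeing the data. No setting reversed a sign that had passed the threshold, and no other scaling moved the median of all genes beyond 0.036. Of the settings tried for single members, 464 left the call as it was, 45 added one and 35 removed one. TFEB and ULK1, with medians of 5.34 and 4.42 over the arrays, lay near the level minimum of 4. With 3 arrays a group, small differences cannot be resolved, and messenger levels say nothing of protein or of autophagic flux.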

Other observations

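Further genes of these pathways also changed with time in culture. In control cells from 12 to 48 h, 8 of the 43 further autophagy genes rose and 2 fell by limma, 8 and 2 of the 43 further lysosomal genes, 1 and 1 of the 13 further V-ATPase genes and 5 and 1 of the 34 regulators, beside 8.48% of all genes higher and 9.37% lower. In CsA cells the counts were 17 and 1, 10 and 4, 3 and 1, and 6 and 3, beside 16.3% and 16.2%. With the replicate block the control counts were 19 and 4, 17 and 2, 3 and 1, and 7 and 3, beside 18% higher and 18.7% lower, and the lysosomal count in CsA cells was 22 and 4, beside 24.4% in each direction. WDR45, a phosphoinositide-binding relative of WIPI1, rose by 0.87 ± 0.19 in control (limma adjusted p = 0.00751) and by 1.41 ± 0.19 with CsA (0.000141), CALCOCO2, a cargo receptor, by 0.76 ± 0.13 (0.00192) and 1.25 ± 0.13 (3.24e-05), and ATP6AP1, an accessory subunit of the V-ATPase, by 0.50 ± 0.11 (0.0105) and 0.79 ± 0.11 (0.000249). PIK3R4, a subunit of the lipid kinase complex, fell in both, by 0.62 ± 0.11 (0.00318) and 0.79 ± 0.11 (0.000233). MITF, a relative of TFEB, fell with CsA, by 1.62 ± 0.33 (0.00197), and in control its change of -0.76 ± 0.33 did not pass (0.123). FOXO3, a forkhead transcription factor, rose by 0.65 ± 0.11 (0.00238) and 0.43 ± 0.11 (0.00914). In the contrast of the effects at 48 and 12 h none of the genes in these 4 lists passed, with or without the block.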
